A study of Homo sapiens with 12 samples.

Results

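The response shared by both CTCF site deletions in U251-APP cells was taken as the genes whose 8 knockout libraries all lay above, or all below, the 4 wild-type libraries. Of 11128 genes tested, 964 lay above wild type in every knockout library (8.66%) and 967 lay below it (8.69%), which makes 1931 separated genes (17.4%). The size of the shared change was the average of the CTCF-A KO and CTCF-B KO group means minus the wild-type mean, on the log2 scale of the deposited values. In that contrast 2665 of all genes tested were higher (23.9%) and 2465 lower (22.2%) at an adjusted p under 0.05, together 5130 (46.1%). After median centring of the libraries 3132 were higher and 1864 lower, so the share of called genes that were higher went from 51.9% to 62.7%. The test uses the same values as the rule, so that separated genes pass it is no further support: it was passed by 964 of those higher and 961 of those lower (8.64% of genes tested), and the other 6 were PEX10, MFF, RBSN, TIMM8A, FANCC and ALG2.

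U251 is a human astrocytic glioblastoma line, and the U251-APP cells of all 3 groups stably express a mutant amyloid precursor protein (K670N/M671L). In CTCF-A KO and CTCF-B KO, Cas9 and a pair of guides had cut out a binding site of the protein CTCF, called CTCF-A in one group and CTCF-B in the other, while the wild-type group kept both sites. Each group had 4 libraries of total RNA from cultured cells. Per the labels' protocols, edited cells were transfected, selected with puromycin and for mCherry, and grown as single-cell clones. Neither the site coordinates nor the number of clones per group is given, and it is not stated that the wild-type cells were cloned. A change shared by the knockouts therefore cannot be told apart from one that came with transfection, selection or cloning. Replicates are not described as separate cultures or clones, so the tests measure the spread between libraries, which may be technical. A table of genes does not show a deleted binding site, and MTCH2, the gene named in the CTCF-B KO titles, was at -0.46 in CTCF-A KO, with -0.01 in CTCF-B KO relative to wild type.

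CTCF binds DNA and, with the ring-shaped cohesin complex, holds chromatin loops that set which enhancers reach which promoters. Several of the gene groups described here have one well-known regulator each. Interferon-stimulated genes are switched on through transcription factors that bind a short element in their promoters. Genes of cholesterol and fatty acid synthesis are switched on by SREBP factors when sterols run low, and ATF4 drives a program of amino acid transport and stress genes when translation initiation is held back. Astrocytic cells carry glial fibrillary acidic protein (GFAP) as their defining intermediate filament, and YAP with TEAD factors drives genes that respond to cell shape and contact.

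Among the libraries, CTCF-A KO stood apart. The median absolute difference of a library from the others of its group was 0.179, 0.0625, 0.0717 and 0.214 for CTCF-A KO replicates 1 to 4, against 0.0412 to 0.0688 for wild type and CTCF-B KO. The median difference from wild type of GC-rich genes (the upper decile, from 61.5% GC) minus that of GC-poor genes (the lowest decile, up to 38.9%) was 0.96, 0.45, 0.66 and 0.06 in CTCF-A KO and -0.15 to 0.09 elsewhere. Without CTCF-A KO replicate 4, 1354 genes were separated higher and 1238 lower. When replicate 4 alone stood for CTCF-A KO the counts were 1301 and 1491, and after removal of a trend with GC content and transcript length they were 947 and 1249. After that removal, 661 separated higher and 753 separated lower genes were the same as before, and 0 had changed side.

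Most separated genes moved little. The median shared change was 0.33 for those higher and -0.40 for those lower, against -0.01 over all genes tested, and 80.9% of the higher and 66.7% of the lower ones changed by less than 0.5. Changes of at least 2-fold were rare: 24 genes were 2-fold higher and called (0.216% of those tested) and 54 were 2-fold lower (0.485%), of which 22 and 52 were separated. The called exceptions were DHRS3, NUPR1, COL14A1 and APBA2, which overlapped wild type in at least 1 library. DHRS3 was at 2.10 above wild type in CTCF-A KO, with 0.05 in CTCF-B KO, and APBA2 was at -0.17 and -2.15. At the edge of the rule, MPRIP was the separated higher gene with the smallest gap between its nearest knockout and wild-type libraries (0.00024), and MRPL52 was the nearest gene outside (-5.2e-05). On the lower side these were TFAM (2e-05) and LINC01521 (-2.5e-05).

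Separated genes also differed in make-up from the genes tested as a whole. The median GC content was 54.5% for the higher and 45.7% for the lower ones, against 48.7% over all, and median transcript length was 2997, 4450 and 3459 nt. Their median level was 9.69 and 9.77 against 9.28 over all genes, and 96.6% and 96.3% were protein coding against 90.7%. After the trend was removed the GC medians were 50.9% and 50.5% and the lengths 3718 and 3619 nt. The part of the GC tilt of CTCF-A KO in single separated genes was not tested.

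The size of the shared change often differed between the deletions, though less often than over all genes tested. Of the 1925 separated genes that passed the test, 1091 (56.7%) also differed between CTCF-A KO and CTCF-B KO at an adjusted p under 0.05, against 7349 of all 11128 genes tested (66.0%), of which 3717 were higher in CTCF-A KO (33.4% of those tested) and 3632 in CTCF-B KO (32.6%). Among the 1091 separated genes the change was larger in CTCF-A KO for 808 and larger in CTCF-B KO for 283. This split was not counted over all genes tested. For the other 834 no difference was called, which does not show that the deletions act alike. The comparisons of each knockout with wild type share the 4 wild-type libraries, so their values are given side by side and not as an overlap. A separated gene need not pass in each knockout alone: of the 1925, 1446 were called in each knockout against wild type and the rest were not. That count rests on the same wild-type libraries and is no measure of overlap. Among named genes, BMPR1A, BMPR2, TAPBP, MCOLN1, NFKBIA, BUB1B, DDR2 and TFAM were separated but not called in CTCF-B KO (adjusted p 0.0599 to 0.366, limma). MPRIP was not called in CTCF-A KO (adjusted p = 0.224, limma). CTCF-A KO differed from wild type in 62.9% of genes tested (31.8% higher and 31.1% lower) and CTCF-B KO in 39.4% (18.9% and 20.6%).

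**Figure D1:**
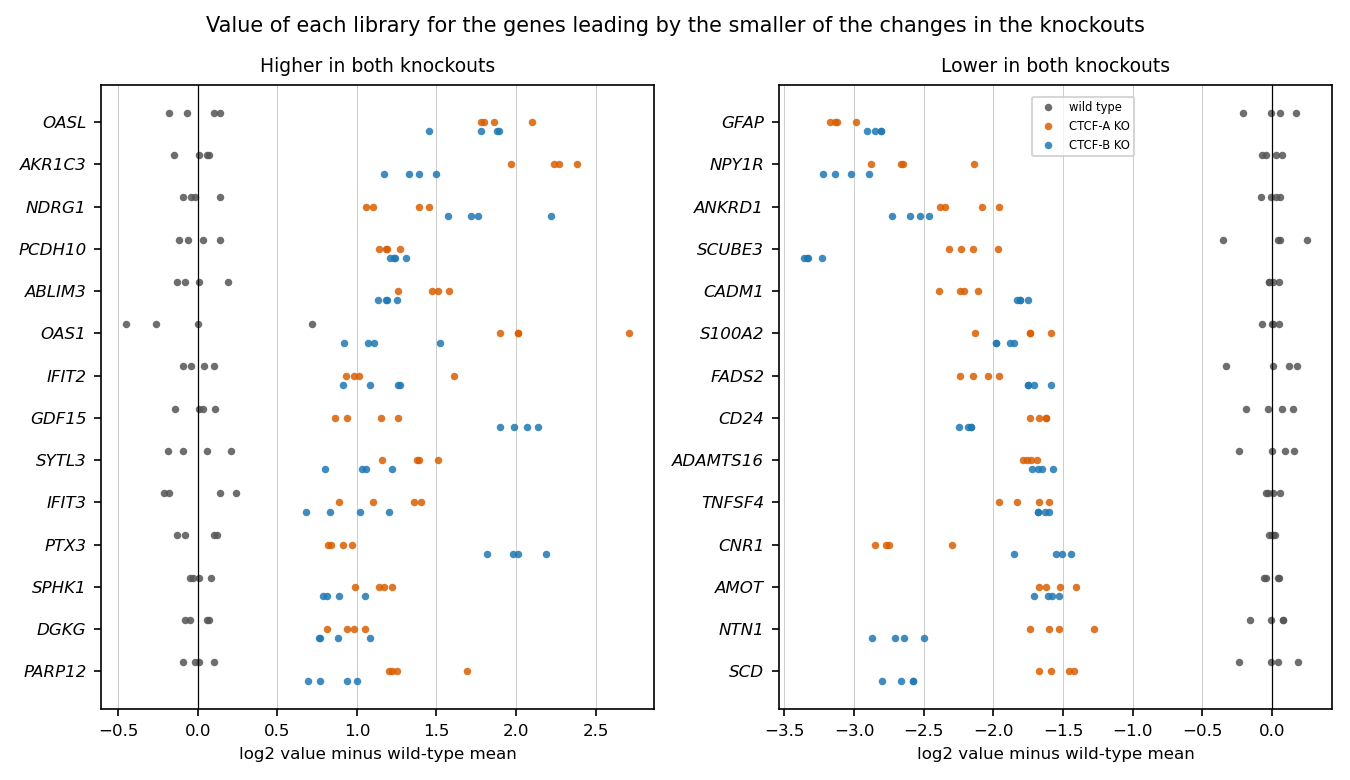
Value of each library, as its log2 value minus the wild-type mean (x axis), for the 14 higher (left) and 14 lower (right) separated genes with a linear mean of at least 50 that lead when ranked by the smaller of their changes in the knockouts. Grey points are wild-type, orange CTCF-A KO and blue CTCF-B KO libraries (4 each); in each gene all 8 knockout points lie on one side of the 4 wild-type points, and GFAP lies farthest below.

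The strongest shared rise was that of OASL, an oligoadenylate synthetase-like protein of the antiviral response (ENSG00000135114, chr12:121019111-121039242, GRCh38). Its log2 values were 6.88, 6.67, 6.84 and 6.56 in wild type, 8.84, 8.60, 8.54 and 8.52 in CTCF-A KO and 8.62, 8.19, 8.52 and 8.63 in CTCF-B KO. All 8 knockout libraries lay more than 1 above the highest wild-type library, and the shared rise was 1.82 ± 0.09 (SE, 4 libraries per group, adjusted p = 1.72e-08, limma). The difference between the knockouts was 0.14 (adjusted p = 0.282).

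AKR1C3, an aldo-keto reductase that reduces steroids and prostaglandins (chr10:5035354-5107686), had values of 7.61, 7.39, 7.55 and 7.60 in wild type, 9.92, 9.81, 9.78 and 9.51 in CTCF-A KO and 8.87, 9.04, 8.93 and 8.71 in CTCF-B KO. No library of one group overlapped another group, with CTCF-A KO highest: the rises were 2.21 and 1.35 in CTCF-A KO and CTCF-B KO, and the difference of 0.87 passed the test (adjusted p = 3.81e-06). AKR1C genes are close paralogs, so reads may have been split between copies. NDRG1, a stress- and hypoxia-responsive gene (chr8:133237171-133302022), was at 8.56, 8.74, 8.51 and 8.58 in wild type, 10.05, 9.70, 9.99 and 9.66 in CTCF-A KO and 10.36, 10.82, 10.32 and 10.17 in CTCF-B KO. Its rise was larger in CTCF-B KO (1.82 against 1.25, adjusted p of the difference 0.00165).

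GDF15, a secreted stress cytokine of the TGF-beta superfamily (chr19:18374731-18389176), was at 8.91, 8.89, 8.74 and 8.99 in wild type, 10.14, 9.82, 10.03 and 9.74 in CTCF-A KO and 10.95, 11.02, 10.87 and 10.78 in CTCF-B KO. The groups formed 3 separate levels, with a rise of 1.05 in CTCF-A KO, with 2.02 in CTCF-B KO. PTX3, a secreted pentraxin of innate immunity (chr3:157436789-157443628), was at 6.38, 6.20, 6.15 and 6.40 in wild type, 7.12, 7.19, 7.25 and 7.10 in CTCF-A KO and 8.29, 8.47, 8.26 and 8.10 in CTCF-B KO, which again put CTCF-B KO highest (2.00 against 0.88, adjusted p of the difference 1.69e-07). PCDH10, a non-clustered protocadherin (chr4:133149315-133208606), rose in both: 9.14, 9.25, 9.05 and 8.99 in wild type, 10.25, 10.30, 10.38 and 10.29 in CTCF-A KO and 10.32, 10.34, 10.35 and 10.42 in CTCF-B KO, with rises of 1.20 and 1.25 and a difference of -0.05 (adjusted p = 0.449). By the smaller of the changes in the knockouts, the other leading rises outside the interferon response were those of ABLIM3, an actin-binding protein (1.32), SYTL3, a synaptotagmin-like protein of vesicle traffic (1.19), SPHK1, a sphingosine kinase (1.00), and DGKG, a diacylglycerol kinase (0.91), all as shared log2 changes with an adjusted p of at most 7.42e-07.

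Interferon-stimulated genes rose as a group. Of 39 listed genes 28 were tested. In the shared contrast 23 were higher, 0 lower, and 17 were separated higher, with a median shared change of 0.74 against -0.01 over all genes. For this and the later lists, the shares over all genes tested were 23.9% higher and 22.2% lower. In CTCF-A KO 24 were higher and 1 lower than wild type (median 0.90), and in CTCF-B KO 19 were higher and 1 lower (median 0.47). OAS1, which makes the 2-5A messenger that activates RNase L (chr12:112906777-112933222), was at 7.66, 7.21, 8.38 and 7.40 in wild type, 10.37, 9.67, 9.56 and 9.67 in CTCF-A KO and 8.77, 8.58, 8.73 and 9.18 in CTCF-B KO. Wild-type replicate 3 lay well above the other wild-type libraries and close to the lowest CTCF-B KO library, and the shared rise was 1.66 ± 0.21 (adjusted p = 3.79e-05), larger in CTCF-A KO (2.16 against 1.16). IFIT2, an RNA-binding antiviral protein (chr10:89283694-89309276), was at 7.27, 7.41, 7.35 and 7.22 in wild type, 8.24, 8.32, 8.29 and 8.92 in CTCF-A KO and 8.39, 8.22, 8.58 and 8.57 in CTCF-B KO. Both deletions gave a rise of 1.13, although CTCF-A KO replicate 4 lay well above the other 3 of its group.

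The neighbouring IFIT3 gene (chr10:89327894-89340971) was at 8.34, 7.99, 8.44 and 8.02 in wild type, 9.56, 9.30, 9.09 and 9.60 in CTCF-A KO and 9.03, 8.88, 9.22 and 9.40 in CTCF-B KO, a shared rise of 1.06 ± 0.12. PARP12, an ADP-ribosyltransferase of the interferon response that was not on the list (chr7:140023744-140063721), was at 8.89, 8.79, 8.98 and 8.86 in wild type, 10.57, 10.13, 10.08 and 10.10 in CTCF-A KO and 9.82, 9.57, 9.65 and 9.88 in CTCF-B KO, and CTCF-A KO rose more (1.34 against 0.85, adjusted p = 0.00108). Sensors of viral RNA were among the separated genes: IFIH1 (MDA5) rose by 0.95 in CTCF-A KO, with 0.84 in CTCF-B KO, and DDX58 (RIG-I) by 0.75 and 0.95. So were IFI44 (1.20 and 0.80), IFIT1 (1.02 and 0.70), ISG15, the ubiquitin-like modifier (1.17 and 0.52), BST2, which tethers budding virions (0.76 and 0.50), and the transcription factor IRF1 (0.82 and 0.45). STAT2, a factor that carries the interferon signal, rose by 0.17 on average and was not separated. PARP9, DTX3L, HERC5, SAMD9 and IFI27 did not pass the test, and IFI27 was at 0.81 in CTCF-A KO, with -0.66 in CTCF-B KO. With any single library left out, 22 or 23 members were higher; with the 8 knockouts treated as 1 group, 18 were.

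Promoters of this group are shown because most of those in a RefSeq promoter table matched the element that interferon-activated factors bind. The interferon-stimulated response element was searched as GAAA, any 2 bases and GAAA again on both strands, from 250 bases before to 50 after the start of each gene in a RefSeq promoter table (GRCh38.p14). Capitals mark every match, which reads TTTC, 2 bases and TTTC where it lies on the other strand. None of the matches shown overlapped another motif searched.
IFIT3: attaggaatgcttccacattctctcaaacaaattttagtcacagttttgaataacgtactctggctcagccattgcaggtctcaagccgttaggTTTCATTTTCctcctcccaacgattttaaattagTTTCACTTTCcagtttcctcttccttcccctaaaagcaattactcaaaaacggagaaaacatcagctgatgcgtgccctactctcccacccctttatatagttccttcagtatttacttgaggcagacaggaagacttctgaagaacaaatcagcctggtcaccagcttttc
IFIH1: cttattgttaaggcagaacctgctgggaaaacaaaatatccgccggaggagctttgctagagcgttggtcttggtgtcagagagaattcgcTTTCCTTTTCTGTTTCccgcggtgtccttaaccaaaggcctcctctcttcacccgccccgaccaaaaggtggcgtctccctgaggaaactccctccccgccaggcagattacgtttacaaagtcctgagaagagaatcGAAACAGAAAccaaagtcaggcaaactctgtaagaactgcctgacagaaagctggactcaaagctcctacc
ISG15: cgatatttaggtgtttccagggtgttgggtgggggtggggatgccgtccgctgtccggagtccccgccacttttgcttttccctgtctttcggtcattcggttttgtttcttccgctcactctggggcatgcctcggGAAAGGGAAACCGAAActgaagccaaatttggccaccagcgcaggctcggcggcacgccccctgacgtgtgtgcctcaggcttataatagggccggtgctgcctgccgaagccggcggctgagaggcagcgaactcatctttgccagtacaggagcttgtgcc
BST2: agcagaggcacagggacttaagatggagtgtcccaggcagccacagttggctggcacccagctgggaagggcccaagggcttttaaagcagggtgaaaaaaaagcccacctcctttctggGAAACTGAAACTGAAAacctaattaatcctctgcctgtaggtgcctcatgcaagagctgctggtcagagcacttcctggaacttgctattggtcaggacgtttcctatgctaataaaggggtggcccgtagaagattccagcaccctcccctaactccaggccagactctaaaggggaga
The windows are chr10:89327747-89328046 (plus strand), chr2:162318635-162318934 (minus), chr1:1013247-1013546 (plus) and chr19:17405581-17405880 (minus). They hold 2, 3, 2 and 2 matches, the first of which begins at position -156, -159, -113 and -130 from the start site.

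A match was present in 14 of the 22 promoters of the interferon list in the table (63.6%) and in 228 of 8351 promoters of genes tested (2.73%). Among the separated members in the table, OAS1, IFI35, IRF1, PSMB8 and HERC6 had none in this window. Among all separated higher genes 43 of 747 promoters held it (5.76%), or 34 of 733 (4.64%) with the interferon list left out. Among separated lower genes 23 of 764 did (3.01%), and 996 of all 27305 promoters listed by RefSeq did (3.65%). A core of the CTCF motif, CCA, any 2 bases, AG, any 2 bases and GGC, searched on both strands, was in 20 of 747 promoters of separated higher genes (2.68%), 21 of 764 of separated lower genes (2.75%) and 237 of 8351 of genes tested (2.84%). A sterol element (TCAC, any base, CCAC) was in 1 of 18 sterol synthesis promoters (5.56%), against 90 of 8351 of genes tested (1.08%). That gene was not separated, and no separated member of the list in the RefSeq table held the element. An ATF4 element (TGATG, any base, AA, any base) was in 4 of 20 promoters of the integrated stress list (20.0%). Among genes tested 119 of 8351 promoters held it (1.42%). These are matches of letters, counted with no test.

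Class I antigen presentation genes were also higher on average, and 11 of the 12 tested differed between the knockouts, against 66.0% of all genes tested. Of the 12, 10 were higher and 0 lower, but 4 were separated, and the list's median was 0.93 in CTCF-A KO, with 0.02 in CTCF-B KO. TAP2, which with TAP1 pumps peptides into the endoplasmic reticulum, was at 8.70, 8.81, 8.84 and 8.75 in wild type, 9.71, 9.68, 9.58 and 9.60 in CTCF-A KO and 9.61, 9.65, 9.55 and 9.63 in CTCF-B KO. It rose by 0.86 and 0.83 (difference 0.03, adjusted p = 0.588), whereas TAP1 rose by 1.61 and 0.34, a difference of 1.27 (adjusted p = 1.23e-07). HLA-E and TAPBP were the other separated members, at 0.59 and 0.26 and at 0.55 and 0.06. HLA-B and HLA-C were at 1.54 and 1.21 in CTCF-A KO and at -0.25 and 0.02 in CTCF-B KO, and reads may be shared among class I paralogs. With the knockouts treated as 1 group, 2 of the 12 were called higher.

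**Figure D2:**
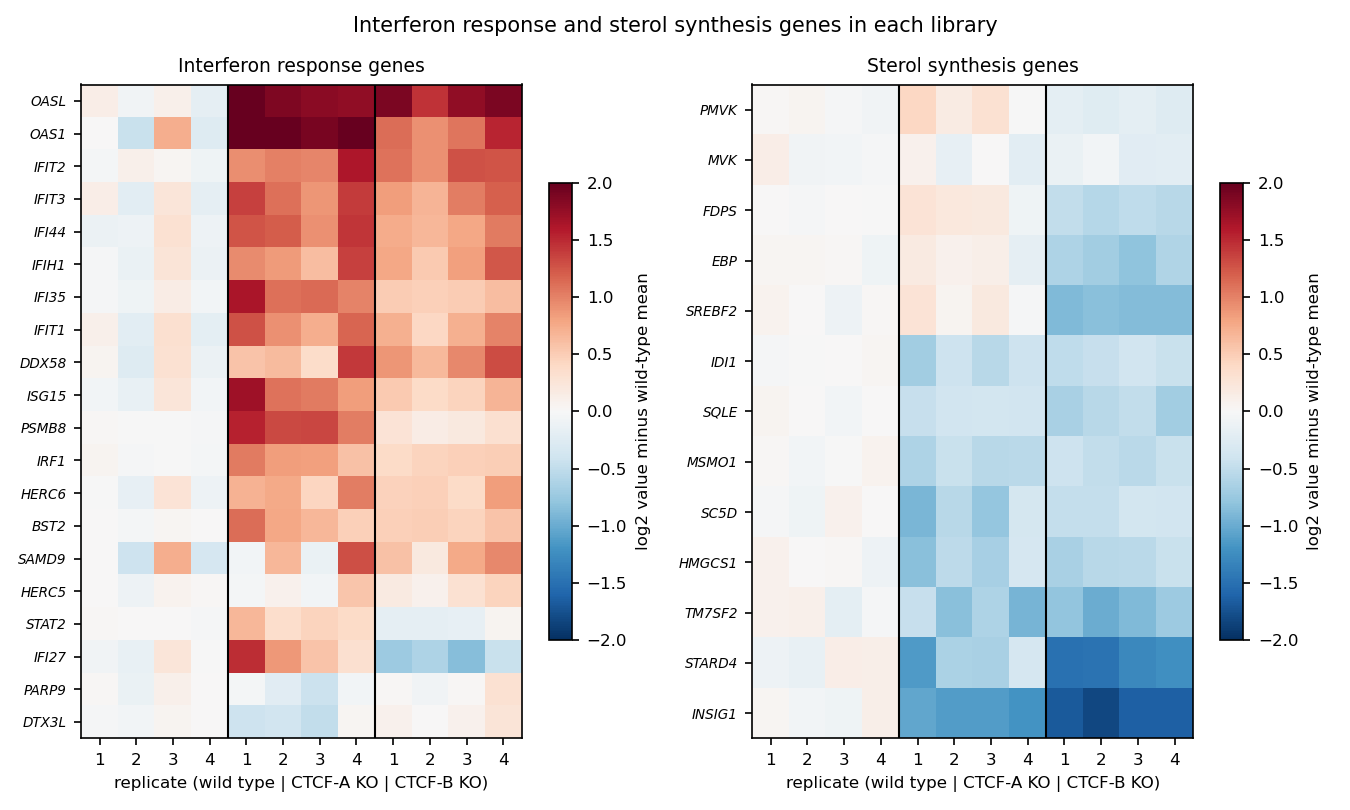
Log2 value minus the wild-type mean (colour, red higher and blue lower, with the scale ending at 2 and -2) in each of the 12 libraries for the interferon-response genes (left) and the sterol synthesis genes (right) that the text names, each list ordered by the shared change. Columns are replicates 1 to 4 of each group, wild type first and CTCF-B KO last; OASL is red and INSIG1 blue in all 8 knockout libraries, and IFI27 is red in CTCF-A KO and blue in CTCF-B KO.

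Most genes of the integrated stress response were higher on average, more uniformly so in CTCF-B KO. Against wild type, 17 were higher and 7 lower in CTCF-A KO, and 26 were higher and 1 lower in CTCF-B KO. Of 29 genes tested 22 were higher and 2 lower, 15 were separated higher, and the list's median was 0.22 in CTCF-A KO, with 0.66 in CTCF-B KO (shared median 0.44). SESN2, a sestrin that restrains mTORC1 (chr1:28259527-28282491), was at 8.15, 8.22, 7.93 and 8.23 in wild type, 9.05, 8.82, 8.89 and 8.78 in CTCF-A KO and 9.70, 9.74, 9.74 and 9.52 in CTCF-B KO. The 3 groups did not overlap, with rises of 0.75 and 1.54. TRIB3, a pseudokinase target of CHOP, rose by 0.45 and 1.79, and DDIT4, an mTORC1 inhibitor, by 0.50 and 1.07.

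DDIT3 (CHOP), a transcription factor of this response (chr12:57516588-57521737), was at 7.53, 7.76, 7.63 and 7.81 in wild type, 8.44, 8.43, 8.48 and 8.27 in CTCF-A KO and 8.58, 8.53, 8.51 and 8.35 in CTCF-B KO, with a difference between the knockouts of -0.09 (adjusted p = 0.314). CEBPB, another bZIP factor, was higher in CTCF-A KO (0.94 against 0.66). Amino acid carriers were separated as well: SLC3A2 rose by 0.55 and 0.69, SLC7A5 by 0.22 and 0.79, and SLC1A5 by 0.21 and 0.49. ATF4 itself rose by 0.23 on average and was not separated. VLDLR, a lipoprotein receptor on the list, was separated in the other direction (-1.12 and -0.63), and PHGDH, the first enzyme of serine synthesis, was the other lower member (-0.50 and -0.04). With any library left out 22 or 23 were higher, and 16 with the knockouts treated as 1 group.

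Chaperones of the endoplasmic reticulum went both ways. Of 17 genes tested 4 were higher and 3 lower, with a median of -0.05. These shares were no larger than those over all genes tested (23.9% higher and 22.2% lower). XBP1, a transcription factor of the unfolded protein response, rose by 0.30 and 0.40, and HSPA5 (BiP), the main luminal chaperone, fell by 0.21 on average: 13.91, 13.89, 13.86 and 13.94 in wild type, 13.67, 13.65, 13.74 and 13.68 in CTCF-A KO and 13.71, 13.76, 13.67 and 13.65 in CTCF-B KO. Without CTCF-A KO replicate 1 or 4 the count lower was 5 or 6, and after the trend was removed it was 7.

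NRF2 targets and other antioxidant genes were mostly higher. Of 20 genes tested 14 were higher, 0 lower and 8 separated higher, with a median of 0.25. Against wild type, 16 were higher and 1 lower in CTCF-A KO (median 0.51), and 10 were higher and 4 lower in CTCF-B KO (median 0.17). HMOX1, heme oxygenase (chr22:35380361-35394214), was at 9.15, 9.03, 8.99 and 9.08 in wild type, 11.19, 11.09, 11.13 and 10.87 in CTCF-A KO and 9.51, 9.92, 9.57 and 9.38 in CTCF-B KO. It lay above wild type throughout and far more so in CTCF-A KO (2.01 against 0.53, adjusted p = 7.68e-08). SRXN1, a sulfiredoxin, rose by 0.59 and 0.74, OSGIN1 by 0.32 and 0.57, and the ferritin light chain FTL by 0.74 and 0.20. NFE2L2, which encodes NRF2, and NQO1 did not pass the test. With the knockouts treated as 1 group 6 were higher.

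Among hypoxia and glycolysis genes 14 of 27 were higher, 4 lower and 6 separated higher, with a median of 0.14. Against wild type, 18 were higher and 3 lower in CTCF-A KO (median 0.36), and 8 were higher and 5 lower in CTCF-B KO (median 0.03). ADM, a vasodilator peptide, was at 6.87, 7.10, 6.88 and 7.13 in wild type, 8.57, 8.47, 8.37 and 8.25 in CTCF-A KO and 7.69, 8.03, 7.75 and 7.75 in CTCF-B KO, and VEGFA, the angiogenic growth factor, was at 10.57, 10.44, 10.40 and 10.52 in wild type, 11.15, 11.09, 11.10 and 10.96 in CTCF-A KO and 11.23, 11.34, 11.26 and 11.14 in CTCF-B KO. Both lay above wild type in all 8 libraries, ADM more in CTCF-A KO (1.42 against 0.81) and VEGFA more in CTCF-B KO (0.76 against 0.59). The others separated were NDRG1, DDIT4, ENO2 (1.02 and 0.38) and GAPDH (0.51 and 0.06). LDHA, PDK1 and BNIP3L did not pass. Without CTCF-A KO replicate 4, 7 members were lower, and with the knockouts treated as 1 group 5 were higher and 0 lower.

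Of 28 lysosomal genes tested 20 were higher and 2 lower, but 5 were separated: SQSTM1, an autophagy receptor (1.40 and 0.50), the cholesterol exporter NPC1 (0.69 and 0.33), the protease CTSL (0.53 and 0.37), the factor TFEB (0.54 and 0.12) and the channel MCOLN1 (0.29 and 0.12). The list's median was 0.52 in CTCF-A KO, with -0.03 in CTCF-B KO, and CTSD, a major protease, was at 1.65 and -0.02. After removal of the GC and length trend MCOLN1 was at 0.08 (adjusted p = 0.092), and 3 members were separated. With the knockouts treated as 1 group 3 were higher.

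**Figure D3:**
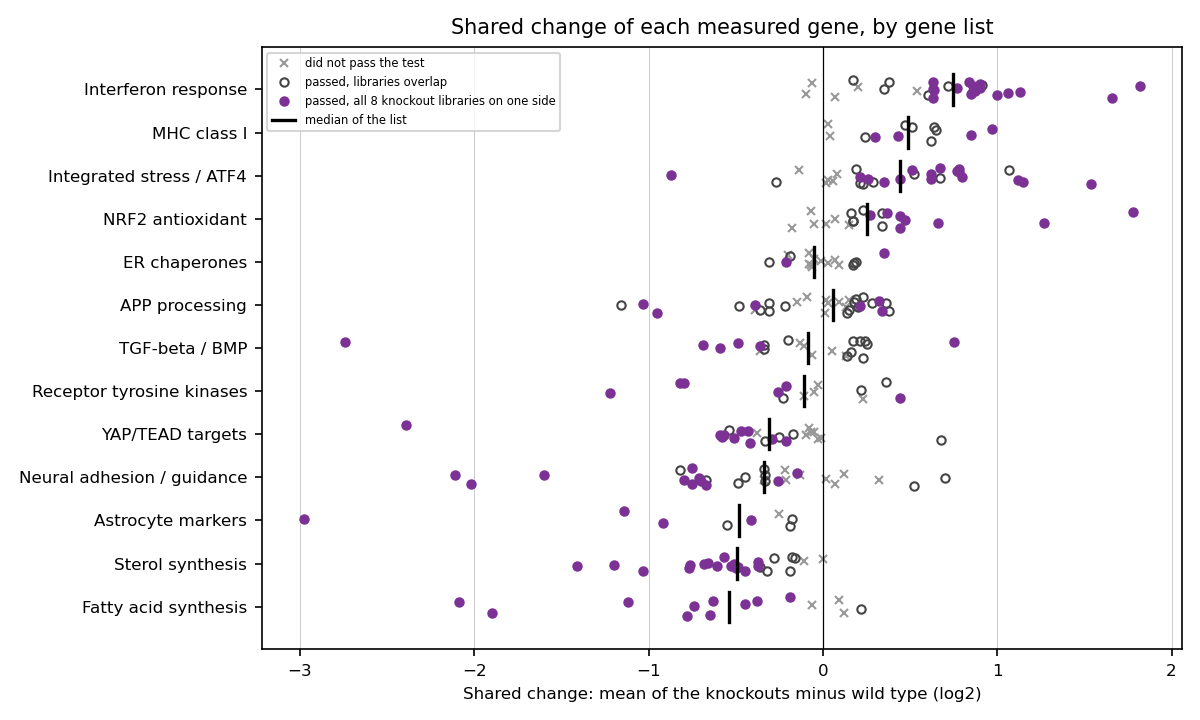
Shared change of each gene tested (x axis, log2, mean of the knockouts minus wild type) for 13 gene lists (y axis). Filled purple points passed the test and had all 8 knockout libraries on one side of wild type, open circles passed it with overlapping libraries, grey crosses did not pass, and the black bar is the list's median, which runs from 0.74 for interferon genes to -0.54 for fatty acid synthesis.

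The largest shared fall was that of GFAP (ENSG00000131095, chr17:44903161-44916937), whose protein is the intermediate filament of astrocytes. Its log2 values were 15.85, 15.74, 15.47 and 15.67 in wild type, 12.69, 12.56, 12.54 and 12.51 in CTCF-A KO and 12.87, 12.77, 12.87 and 12.83 in CTCF-B KO. The knockouts lay about 3 log2 units below wild type with no overlap, a shared fall of -2.98 ± 0.06 (adjusted p = 4.13e-12), and CTCF-A KO was lower by a further -0.26 (adjusted p = 0.00442). In bulk RNA, fewer cells with a gene and less of its RNA per cell cannot be told apart.

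Of 8 astrocyte and glial progenitor markers tested 7 were lower, 0 higher and 4 separated lower, with a median of -0.48. FABP7, a fatty acid-binding protein of radial glia (chr6:122779475-122784074), was at 10.93, 10.86, 10.80 and 10.87 in wild type, 9.46, 9.50, 9.47 and 9.14 in CTCF-A KO and 10.17, 10.00, 10.11 and 9.98 in CTCF-B KO. SLC1A3, the glutamate transporter GLAST (chr5:36606355-36688334), was at 10.44, 10.40, 10.34 and 10.51 in wild type, 9.70, 9.86, 9.90 and 10.12 in CTCF-A KO and 9.19, 8.99, 9.09 and 9.18 in CTCF-B KO. The former fell more in CTCF-A KO (-1.47 against -0.80) and the latter in CTCF-B KO (-1.31 against -0.52). SOX2, a stem cell factor, fell by 0.41 on average. NES (nestin) did not pass, and AQP4, S100B, ALDH1L1 and SLC1A2 were not analysed here. With the knockouts treated as 1 group 4 of the 8 were lower.

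Few markers of other cell types were tested. Summed over the 4 neuronal markers tested, the linear level was 38900 to 42100 in wild type, 54400 to 62300 in CTCF-A KO, with 13600 to 15300 in CTCF-B KO, a pattern carried by the neurofilament NEFL (0.52 and -1.54). SYT1 was higher (0.01 and 0.71), and SNAP25 and MAP2 did not pass. None of 8 microglial and macrophage markers was tested, and CNP was the only oligodendrocyte marker. The other tested markers were the kinase receptor KDR (-1.17 and -0.84) and the keratin KRT18 (-0.27 and -0.40), both separated lower, and of 4 mesenchymal markers COL1A1 (-1.03 and -0.41) was separated lower. Their part in the fall of the astrocyte markers was not tested.

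Sterol synthesis genes fell together. Of 24 tested 22 were lower, 0 higher and 16 separated lower, with a median of -0.49 (-0.39 in CTCF-A KO, with -0.54 in CTCF-B KO). INSIG1, the endoplasmic reticulum anchor that holds SREBP back (chr7:155297776-155310235), was at 11.30, 11.21, 11.17 and 11.37 in wild type, 10.22, 10.15, 10.14 and 10.06 in CTCF-A KO and 9.58, 9.44, 9.62 and 9.62 in CTCF-B KO. The 3 groups did not overlap and CTCF-B KO was lowest, with falls of -1.12 and -1.69.

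STARD4, a sterol carrier, was at 8.17, 8.12, 8.40 and 8.38 in wild type, 7.14, 7.63, 7.62 and 7.94 in CTCF-A KO and 6.78, 6.79, 6.98 and 7.04 in CTCF-B KO, again lowest in CTCF-B KO (-0.69 and -1.37). HMGCS1, a synthase early in the pathway, fell by 0.57 on average (-0.59 and -0.55). SQLE, IDI1, MSMO1, SC5D and TM7SF2, enzymes along the path to cholesterol, were separated with shared falls of -0.49 to -0.77. SREBF2, which encodes SREBP-2, was at 0.13 and -0.86, EBP at 0.04 and -0.69 and FDPS at 0.16 and -0.53, and none of these was separated. PMVK and MVK did not pass the test. After median centring of the libraries 19 were lower and 12 separated, and with the knockouts treated as 1 group 15 were lower.

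Fatty acid synthesis and desaturation fell as well: 10 of 14 genes tested were lower, 1 higher and 10 separated lower, with a median of -0.54. SCD, the stearoyl-CoA desaturase (chr10:100347124-100364834), was at 14.10, 14.05, 13.82 and 14.25 in wild type, 12.64, 12.39, 12.60 and 12.47 in CTCF-A KO and 11.48, 11.26, 11.40 and 11.48 in CTCF-B KO. The groups formed 3 levels, with falls of -1.53 and -2.65 that differed from each other by 1.12 (adjusted p = 1.87e-07). FADS2, the delta-6 desaturase (chr11:61792980-61867354), was at 10.05, 9.94, 9.60 and 10.11 in wild type, 7.97, 7.89, 7.69 and 7.78 in CTCF-A KO and 8.34, 8.18, 8.18 and 8.22 in CTCF-B KO, a fall of -2.09 and -1.70. FADS1, FADS2 and FEN1 overlap at this position, and with no strand setting given their reads may be mixed; FADS1 was at -0.59 and -0.96 and FEN1 at -0.15 and -0.14.

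The factor SREBF1 was at -0.52 and -1.72, fatty acid synthase (FASN) at -0.40 and -1.08, and acetyl-CoA carboxylase (ACACA) at -0.31 and -0.46. ELOVL6, an elongase, fell mainly in CTCF-A KO (-1.11 and -0.15). ACLY, which supplies cytosolic acetyl-CoA, was the higher member (0.52 and -0.07), and INSIG2, ACSL1 and ACSS2 did not pass. The count lower was 10 with each library left out in turn and 9 with the knockouts treated as 1 group. Of the sterol efflux genes, the liver X receptor NR1H2 was separated higher (0.40 and 0.23), and the exporter ABCA1 was at 0.26 and -0.84.

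Of 20 listed neural receptors and channels 4 were tested, of which 3 were lower and GABRE did not pass; ADORA2B, an adenosine receptor, was at -0.12 and -0.55 and was not separated. NPY1R, a receptor of neuropeptide Y (chr4:163323961-163344832), was at 12.50, 12.40, 12.43 and 12.54 in wild type, 9.59, 9.82, 9.81 and 10.33 in CTCF-A KO and 9.33, 9.25, 9.45 and 9.58 in CTCF-B KO, with falls of -2.58 and -3.07. CTCF-A KO replicate 4 lay nearest to wild type but still more than 2 units below it. CNR1, the cannabinoid receptor CB1 (chr6:88139864-88166359), was at 11.58, 11.62, 11.61 and 11.60 in wild type, 8.75, 8.85, 8.83 and 9.30 in CTCF-A KO and 10.05, 9.75, 10.09 and 10.16 in CTCF-B KO. The 4 wild-type libraries lay close together, and the fall was larger in CTCF-A KO (-2.67 against -1.59, adjusted p = 2.67e-06).

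Adhesion and guidance genes of the nervous system were lower in 18 of 28 cases, higher in 2 and separated lower in 11, with a median of -0.34. CADM1, a synaptic adhesion molecule (chr11:115169218-115504957), was at 11.70, 11.67, 11.67 and 11.74 in wild type, 9.30, 9.45, 9.48 and 9.58 in CTCF-A KO and 9.86, 9.88, 9.94 and 9.88 in CTCF-B KO. The guidance cue NTN1 (netrin-1, chr17:9021542-9244000) was at 10.53, 10.53, 10.29 and 10.44 in wild type, 9.17, 8.71, 8.92 and 8.85 in CTCF-A KO and 7.58, 7.74, 7.81 and 7.95 in CTCF-B KO. CADM1 fell more in CTCF-A KO (-2.24 against -1.80) and NTN1 more in CTCF-B KO (-2.68 against -1.54), with an adjusted p for those differences of 1.27e-05 and 6.59e-07. UNC5C, a netrin receptor, was at -0.75 and -0.76, SEMA3C, a semaphorin, at -0.74 and -0.76, EFNB2, an ephrin, at -0.68 and -0.66, and the membrane glycoproteins GPM6A and GPM6B at -0.70 and -0.73 and at -1.92 and -1.28. L1CAM, by contrast, was at 1.19 and -1.86 and EPHB2 at 1.45 and -0.05. After removal of the GC and length trend 5 members were higher, and with the knockouts treated as 1 group 11 were lower.

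Targets and partners of YAP and TEAD were lower in 14 of 22 cases, higher in 1 and separated lower in 10, with a median of -0.31. In CTCF-A KO 16 were lower and 0 higher than wild type (median -0.39), and in CTCF-B KO 13 were lower and 4 higher (median -0.22). ANKRD1, a stretch-induced YAP target (chr10:90912096-90921276), was at 8.26, 8.12, 8.23 and 8.19 in wild type, 5.82, 6.24, 6.12 and 5.85 in CTCF-A KO and 5.60, 5.74, 5.67 and 5.47 in CTCF-B KO. It fell in both, by -2.19 and -2.58, and CYR61 and CTGF, other classical targets, were at -0.51 and -0.64 and at -0.95 and -0.18. AMOT (angiomotin), which binds YAP and was not on the list (chrX:112774503-112840815), was at 11.59, 11.58, 11.50 and 11.48 in wild type, 9.87, 9.92, 10.02 and 10.13 in CTCF-A KO and 10.01, 9.83, 9.96 and 9.93 in CTCF-B KO, a fall of -1.55 and -1.60 with a difference of 0.05 (adjusted p = 0.442). YAP1 itself was at -0.75 and -0.09, and NT5E was the higher member (-0.15 and 1.51). TEAD1, TEAD4, LATS2 and AMOTL1 did not pass. With the knockouts treated as 1 group 8 were lower.

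Several genes of other roles fell steeply. SCUBE3, a secreted glycoprotein that acts on TGF-beta and BMP receptors (chr6:35214419-35253079), was at 10.61, 10.40, 10.01 and 10.42 in wild type, 8.39, 8.04, 8.13 and 8.21 in CTCF-A KO and 7.02, 7.03 and 7.13 in CTCF-B KO replicates 1, 2 and 4, with replicate 3 just below these. S100A2, a calcium-binding protein (chr1:153561108-153567890), was at 11.41, 11.36, 11.37 and 11.29 in wild type, 9.77, 9.62, 9.62 and 9.23 in CTCF-A KO and 9.48, 9.38, 9.38 and 9.51 in CTCF-B KO. CD24, a small sialoglycoprotein (chr6:106969831-106975627), was at 9.59, 9.49, 9.33 and 9.67 in wild type, 7.85, 7.90, 7.90 and 7.78 in CTCF-A KO and 7.34, 7.36, 7.36 and 7.27 in CTCF-B KO. SCUBE3 and CD24 were lowest in CTCF-B KO, by differences of 1.15 and 0.52 that passed the test, and S100A2 differed by 0.12 (adjusted p = 0.248). ADAMTS16, a matrix metalloprotease (-1.75 and -1.66), and TNFSF4, the OX40 ligand (-1.77 and -1.65), complete the 14 leading falls by the smaller of the changes in the knockouts, with no difference between the knockouts called in either.

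Of the growth factor receptors tested 6 of 13 were lower and 3 higher, against 22.2% and 23.9% of all genes tested. PDGFRA, a receptor of glial progenitors and glioma (chr4:54229097-54298247), was at 11.19, 11.12, 11.21 and 11.24 in wild type, 9.90, 10.22, 10.16 and 10.66 in CTCF-A KO and 9.77, 9.50, 9.72 and 9.84 in CTCF-B KO. FGFR3 fell by 0.82 on average (-1.01 and -0.64) and IGF1R by 0.80 (-0.56 and -1.03), while DDR2, a collagen receptor, rose by 0.44. EGFR and MET did not pass the test. Among TGF-beta and BMP genes 8 of 22 were higher and 8 lower, against 23.9% and 22.2% of all genes tested. The receptors BMPR1A (-1.05 and -0.34), BMPR2 (-0.85 and -0.32), TGFBR1 (-0.66 and -0.32) and TGFBR2 (-0.60 and -0.12) were separated lower. In CTCF-B KO alone the falls of BMPR1A and BMPR2 did not pass (adjusted p = 0.0599 and 0.165, limma). The latent TGF-beta-binding protein LTBP1 was separated higher (0.37 and 1.13).

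Of 22 genes tested for collagens and the proteins that fold and modify them, 8 were higher and 9 lower, and 17 differed between the knockouts. Over all genes tested 23.9% were higher, 22.2% lower, and 66.0% differed between the knockouts. Against wild type, 12 were higher and 5 lower in CTCF-A KO (median 0.18), and 5 were higher and 14 lower in CTCF-B KO (median -0.25). The 3 separated higher were the enzymes P4HA2 (0.74 and 0.93), PLOD1 (0.48 and 0.31) and PLOD3 (0.42 and 0.29). The 4 separated lower were the collagens COL1A1, COL5A2 (-0.16 and -0.35) and COL4A5 (-0.24 and -0.28) and the collagen chaperone SERPINH1 (-0.35 and -0.25). Integrin ITGA5, the fibronectin receptor subunit, was at 11.54, 11.57, 11.52 and 11.55 in wild type, 12.73, 12.57, 12.65 and 12.48 in CTCF-A KO and 12.15, 12.20, 12.10 and 12.11 in CTCF-B KO. ITGB8, which activates TGF-beta, fell by 1.02 ± 0.18 on average: 10.59, 10.52, 11.01 and 10.64 in wild type, 9.02, 9.55, 9.37 and 10.25 in CTCF-A KO and 9.70, 9.61, 9.89 and 9.94 in CTCF-B KO. ITGA5 was higher in all 8 knockout libraries, and ITGB8 lower, with CTCF-A KO replicate 4 closest to wild type.

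APP, the precursor of amyloid-beta of which the line expresses a mutant form (ENSG00000142192, chr21:25880550-26171128), was at 17.22, 17.23, 17.15 and 17.16 in wild type, 15.79, 15.75, 15.85 and 15.78 in CTCF-A KO and 16.54, 16.49, 16.55 and 16.56 in CTCF-B KO. The libraries of each group lay close together and the 3 groups were well apart. The falls were -1.40 in CTCF-A KO, with -0.66 in CTCF-B KO, which differed by -0.74 (adjusted p = 1.12e-09). The table has 1 value for APP per library, in which the introduced mutant gene and the cells' own gene are not told apart. Of 30 genes of APP processing and sorting tested, 12 were higher and 9 lower, with a median of 0.06. Over all genes tested 23.9% were higher and 22.2% lower. Against wild type, 15 were higher and 8 lower in CTCF-A KO (median 0.18), and 4 were higher and 12 lower in CTCF-B KO (median -0.11). SORL1, a sorting receptor that keeps APP from cleavage (chr11:121452203-121633693), was at 10.02, 10.14, 10.09 and 9.89 in wild type, 9.35, 9.35, 9.53 and 9.68 in CTCF-A KO and 8.65, 8.60, 8.72 and 8.79 in CTCF-B KO, with falls of -0.56 and -1.34. The adaptor APBB2 was at -0.50 and -0.29, and LRP10 (0.43 and 0.24), APBA3 (0.22 and 0.42) and GGA3 (0.26 and 0.15) were separated higher. BACE1, the beta-secretase, was at -0.59 and -0.13, and ADAM10 and ADAM17 did not pass. With the knockouts treated as 1 group 3 of the list were higher and 4 lower.

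CTCF itself (chr16:67562407-67639185) was at 11.15, 11.15, 11.11 and 11.17 in wild type, 10.78, 10.87, 10.82 and 10.89 in CTCF-A KO and 10.90, 10.91, 10.84 and 10.87 in CTCF-B KO. It lay below wild type in all 8 libraries, by -0.30 in CTCF-A KO, with -0.26 in CTCF-B KO. Of 16 genes for CTCF, cohesin and their partners 8 were lower and 1, the cohesin loader MAU2 (0.28 and 0.22), was higher. Besides CTCF, only ADNP (-0.48 and -0.28) was separated lower. The count lower was 3 without wild-type replicate 3, 4 without wild-type replicate 4, and 2 with the knockouts treated as 1 group. None of the 8 clustered protocadherins tested, which use CTCF sites at their promoters, was separated, against 17.4% of all genes tested. In the shared contrast 3 were lower and 0 higher, and all 8 differed between the knockouts, against 66.0% of all genes tested. Against wild type, 3 were higher and 0 lower in CTCF-A KO (median 0.16), and 0 were higher and 7 lower in CTCF-B KO (median -0.35). Of 26 genes around MTCH2 on 11p11, 9 were lower and 0 higher, and PTPRJ (-0.55 and -0.22) was the separated one. The knockouts differed there: 18 were lower and 0 higher in CTCF-A KO (median -0.26), against 2 lower and 4 higher in CTCF-B KO (median 0.09).

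Proliferation genes were described by DNA replication and mitosis. Of 38 DNA replication genes 12 were lower and 3 higher, and 5 were separated lower and 1 higher, a share near that over all genes tested (17.4%). Among those separated lower was the helicase subunit MCM6 (-0.58 and -0.52). After median centring 7 were lower, and after removal of the GC and length trend 21. Of 29 mitotic genes 11 were lower and 1 higher, and 2 were separated, BUB1B (-0.59 and -0.20) and CENPA (-0.21 and -0.16). Against wild type, 17 were lower and 3 higher in CTCF-A KO (median -0.32), and 2 were lower and 4 higher in CTCF-B KO (median -0.03). MKI67, a marker of cycling cells, was at -1.41 and -0.18. The count of lower mitotic genes was 19 without CTCF-A KO replicate 4, 6 without wild-type replicate 3 and 1 with the knockouts treated as 1 group.

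Separated genes were unevenly spread over the chromosomes. On chromosome 17, 160 of 726 genes tested were separated higher (22.0%) and 28 lower (3.86%), against 8.66% and 8.69% over all. Among the other nuclear chromosomes 19, 14, 12 and 16 followed, from 15.8% higher on 19 to 12.4% on 16. The share lower was 18.0% on chromosome 4, 17.8% on 2, 17.2% on 11, 16.4% on 10 and 13.8% on 9. After removal of the GC and length trend the share higher on chromosome 17 was 19.7% and on 19 it was 9.17%, and the share lower on chromosomes 11 and 10 was 26.9% and 24.6%.

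**Figure D4:**
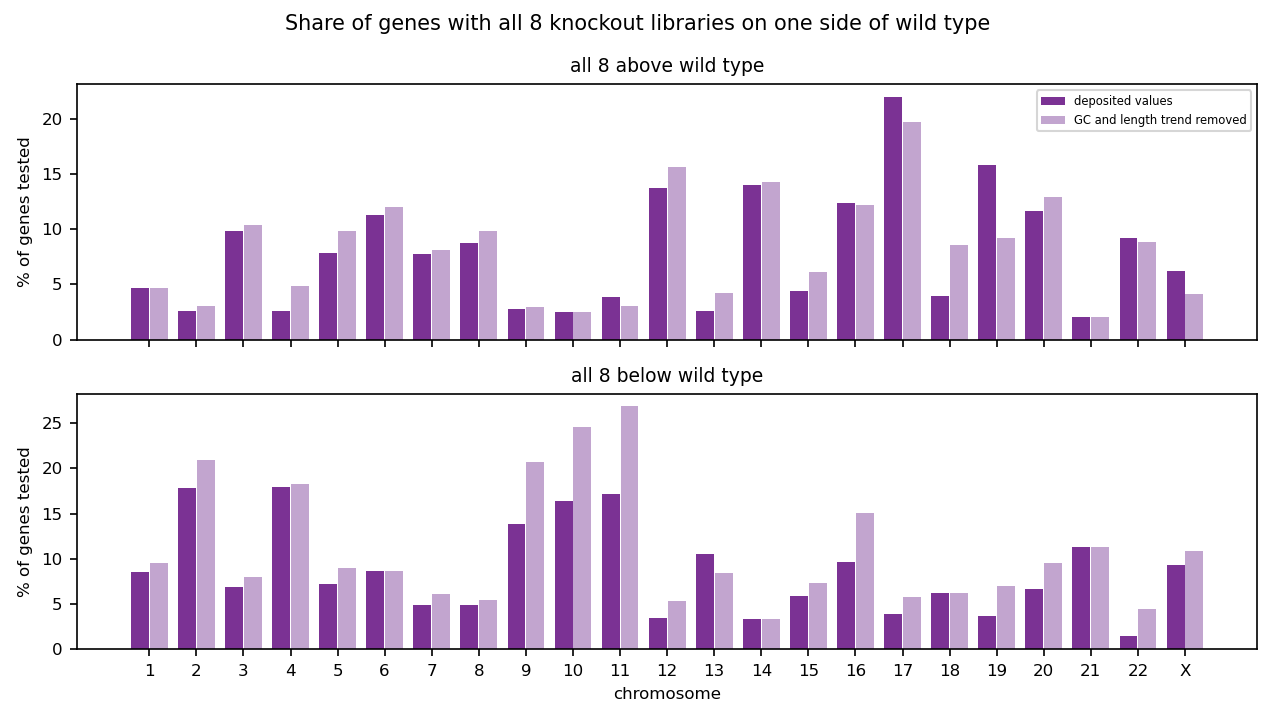
Share of the genes tested on each chromosome (x axis) with all 8 knockout libraries above wild type (top, y axis in %) or below it (bottom), from the deposited values (dark bars) and after removal of the GC and length trend (light bars). Chromosome 17 has the tallest bar above wild type in both settings, and chromosome 11 the tallest below it after removal of the trend.

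Windows of 10 Mb with at least 20 genes tested were also counted in the deposited values. Those with over 30% of genes separated in one direction are given here. From 40 to 50 Mb on chromosome 17, 48 of 144 genes were separated higher (33.3%) and 3 lower, and from 30 to 40 Mb 25 of 78 (32.1%). GFAP lies in the first of these and went the opposite way. On chromosome 11, 20 of 61 genes from 110 to 120 Mb (32.8%) and 13 of 39 from 120 to 130 Mb (33.3%) were separated lower and 0 higher; CADM1 lies in the former and SORL1 in the latter. From 0 to 10 Mb on chromosome 4, 20 of 59 were lower (33.9%) and 0 higher, and from 50 to 60 Mb on chromosome 16 17 of 55 (30.9%), among them MT1E, a metallothionein (-0.52 and -2.39) with near-identical neighbours. From 220 to 230 Mb on chromosome 2, 7 of 20 genes were lower and 3 higher, the highest share lower of any window, in the fewest genes of those given. The median gene of the chromosome 17 window from 40 to 50 Mb was at 0.34 in CTCF-A KO, with 0.06 in CTCF-B KO, and that of the chromosome 11 window from 110 to 120 Mb at -0.27 and -0.16. No test was made of these shares.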

How the data were processed

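RNA sequencing values of 12 libraries of U251-APP cells were used, 4 in each group (wild type, and the knockouts of sites CTCF-A and CTCF-B). The authors deposited 1 table of normalized values for 11178 genes that is already on a log2 scale (1.34 to 17.97), as the values show; which transformation gave it is not recorded. The submitters' processing notes name Trimmomatic 0.33, featureCounts, DESeq2 and GRCh38.p7. The aligner, gene annotation and strand setting are not given in the sources used here. Reads per library are unknown, so no counting interval is given.

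The design foresaw log2(value + 1) for linear values; since the values were log2 already, they were used as they stood. Genes with a linear value of at least 10 in at least 4 libraries were kept (11128; 50 removed). A model of the 3 groups was fitted with limma 3.58.1 in R 4.3.3 (trended variance, two-sided, Benjamini-Hochberg adjustment over all genes, threshold 0.05) and checked on simulated data; SE are from that fit. Positions and symbols are from GENCODE 29 on GRCh38, which held 11151 of the 11178 identifiers. Promoters of 8351 genes tested were found in the RefSeq table.

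Named genes were, in each direction, the 14 separated and called genes with a linear mean of at least 50 and the largest smaller-of-both change, up to 4 separated members of each list, APP, CTCF, MTCH2, and the genes nearest the rule's edge. Other list members are given as values. Some genes that the rule names are not reported here, though list counts and medians include them. The rule, the members and the gene lists were chosen with earlier results of these data known. Alternatives changed the filter, scaling, variance model, replicate block, libraries left out, treatment of the knockouts as 1 group, and removal of a trend with GC content and length (natural splines with 5 and 4 degrees of freedom, known for 99.7% of genes).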

Additional observations from a re-analysis of the deposited data

Results flagged for a closer look

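In 13 of the 339 groups of 4 libraries behind the named genes (3.83%), 1 library lay far from the other 3 in log2 value; chance gives about 1 in 20. In CTCF-A KO, replicate 1 was the far one for OAS1 (10.37, the others 9.56 to 9.67), PARP12 (10.57, the others 10.08 to 10.13) and TAP1 (11.54, the others 11.09 to 11.17). Replicate 2 was so for GINS1, a DNA replication factor (9.08, the others 8.86 to 8.90), and replicate 4 for IFIT2 (8.92, the others 8.24 to 8.32) and FABP7 (9.14, the others 9.46 to 9.50). In CTCF-B KO, replicate 1 was far off for the chemokine CCL2 (8.53, the others 8.42 to 8.44) and the mitochondrial factor TFAM (9.43, the others 9.56 to 9.59), and replicate 2 for NPC1 (9.81, the others 9.69 to 9.70). In wild type, replicate 2 was far off for the retinol dehydrogenase RDH10 (6.98, the others 6.69 to 6.74), and replicate 3 for KRT18 (8.86, the others 8.96 to 8.98), LRP10 (12.19, the others 12.27 to 12.29) and FGFR3 (8.76, the others 8.97 to 8.99).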

How the results depend on the processing

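With the 8 knockout libraries treated as 1 group, 1677 genes were called (877 higher, 800 lower) in place of 5130, since differences between the deletions then count as error. With array weights 8293 were called (4123 higher, 4170 lower), but the weights did not settle: CTCF-A KO replicate 3 received 71.6. With CTCF-A KO replicate 4 as its group's only library 1491 genes were separated lower. Leaving out each library in turn gave 4030 to 7074 genes called, 2122 to 3506 higher, 1908 to 3568 lower, 22 to 26 higher and 50 to 55 lower by 2-fold, 6734 to 8425 differing between the knockouts, and 973 to 1354 separated higher and 987 to 1238 lower. The highest counts of genes called, differing between the knockouts and separated each came without CTCF-A KO replicate 4, and fewer libraries also make separation easier. Of the called genes 51.9% were higher, against 62.7% after median centring, 56.9% after quantile normalization and 48.1% after removal of the GC and length trend.

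The replicate numbers were not taken as pairs. Deviations of same-numbered libraries of different groups correlated at -0.319 to 0.433, and those of differently numbered libraries at -0.508 to 0.504. With the replicate block 5244 genes were called (2662 higher, 2582 lower), 4949 of them also called without it in the same direction. Over 2599 combinations of 113 named genes and settings, 2571 kept direction and call, 28 lost the call and 0 reversed, in 14 genes. For 13 of these the call was lost with the knockouts as 1 group, MTCH2, TAP1, TAPBP, THBS1, BMPR2, MT1E, MCOLN1, NFKBIA, FEN1, BUB1B, MPRIP, TFAM and LINC01521 (adjusted p 0.0549 to 0.225). After median centring CENPA (0.0742), FEN1 (0.201) and LINC01521 (0.116) lost it, after quantile normalization MPRIP (0.107), with the replicate block LINC01521 (0.0526), and after removal of the GC and length trend MCOLN1 (0.092, or 0.0941 with the block). With 1 library left out it was lost by FEN1 (without wild-type replicate 1 or 4), MPRIP (without wild-type replicate 4) and LINC01521 (in 5 of the fits), at 0.0506 to 0.118. The unknown read depth limits what can be said of low values.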

Other observations

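Of 18 p53 targets tested 7 were higher and 5 lower. For this and the lists below, the shares over all genes tested were 23.9% higher and 22.2% lower. The cell cycle inhibitor CDKN1A was separated higher (0.79 in CTCF-A KO, with 0.43 in CTCF-B KO), and the antiproliferative gene BTG2 (-0.79 and -1.41), TP53INP1 (-0.63 and -0.53) and ZMAT3 (-0.89 and -0.14) were separated lower. After removal of the GC and length trend 4 of the list were higher and 7 lower, and with the knockouts treated as 1 group 3 were higher and 2 lower. Of 13 early response genes 8 were higher and 1 lower, or 4 and 0 with the knockouts treated as 1 group. Against wild type, 5 were higher and 5 lower in CTCF-A KO, and 10 were higher and 1 lower in CTCF-B KO. JUNB, an AP-1 subunit (1.12 and 0.64), IER2 (0.54 and 0.31) and KLF10 (0.28 and 0.36) were separated higher. EGR1, an immediate early transcription factor, was at -0.27 in CTCF-A KO, with 1.09 in CTCF-B KO, and JUN and MYC did not pass the test. Of 18 MAPK feedback genes 8 were higher and 3 lower, or 2 and 1 with the knockouts treated as 1 group. Against wild type, 4 were higher and 11 lower in CTCF-A KO, and 12 were higher and 2 lower in CTCF-B KO. The phosphatase DUSP5 (0.45 and 1.16) and PHLDA1 (0.52 and 0.66) were separated higher and the ephrin receptor EPHA2 (-0.20 and -0.33) lower, while DUSP6 was at -0.45 and 1.17.

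Of 12 retinoid genes tested 7 were higher and 2 lower, or 3 and 0 with the knockouts treated as 1 group. Against wild type, 8 were higher and 1 lower in CTCF-A KO (median 0.45), and 4 were higher and 3 lower in CTCF-B KO (median 0.04). The retinol dehydrogenase RDH10 (0.49 and 0.54) and the receptors RXRB (0.35 and 0.35) and RARG (0.61 and 0.27) were separated higher, whereas CYP26B1, which breaks down retinoic acid, was at 1.91 and -0.05. Of 11 cytokines, chemokines and their regulators 7 were higher and 3 lower, or 2 and 1 with the knockouts treated as 1 group. The chemokine CCL2 was separated lower (-0.33 and -1.28) and the NF-kB inhibitor NFKBIA separated higher (0.84 and 0.16), and CXCL8 was at -0.83 and 2.52.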
